A study of Mus musculus with 22 samples.

Results

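After 48 h of stimulation, CD8+ T cells with a conditional Tcaim knock-in were compared with cells of wild-type mice of the same line. The comparison used 6 of the series' 22 libraries, 3 per genotype, found by their genotype and activation labels and paired by experiment number. Knock-in (KI) libraries carry the genotype label hocre and wild-type (wt) libraries wtcre, both in the line Tcaim KI Cd4Cre, so both labels name Cre. Cre recombinase under Cd4 control acts in developing and mature T cells. Naive cells from spleen and lymph nodes, enriched by magnetic removal of all other cells, were cultured on 2 µg/ml plate-bound anti-CD3 with 1 µg/ml soluble anti-CD28. Anti-CD3 triggers the antigen receptor and anti-CD28 a costimulatory one. Each library came from its own mouse, male in experiments 1 and 3 and female in experiment 5, with 1 KI and 1 wt mouse per experiment. No age is given in the labels used here, and sex cannot be told apart from experiment. The same 6 mice also gave naive and 24 h libraries, used below as the same contrast at earlier times. Values are listed in the order of experiments 1, 3 and 5, and a library is written as its genotype and experiment, such as KI 1.

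Tcaim, T cell activation inhibitor, mitochondrial, encodes a mitochondrial protein, and the series title ties it to contacts between mitochondria and the endoplasmic reticulum. A CD8+ T cell that meets antigen leaves quiescence, a state held by factors such as KLF2, and within days builds the membranes, proteins and effector molecules of a dividing cytotoxic cell. New membrane needs sterols and fatty acids, whose synthetic enzymes are switched on together by the SREBP transcription factors when the endoplasmic reticulum is low in cholesterol.

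Tcaim itself (ENSMUSG00000046603, chr9:122805539-122836334) was measured first as a check of the labels. It had 233, 229 and 260 CPM in KI and 9.2, 12 and 9.04 CPM in wt, where CPM is a library's counts of a gene scaled to the same TMM-adjusted total. Every KI library lay far above every wt library, at 4.58 (SE 0.21, adjusted p 2.26e-10) on the log2 scale by edgeR. The call held in all 22 alternative fits, with log2 fold changes from 4.42 to 4.76.

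Total counts of the 6 libraries ran from 69000100 to 85714163. On the 2000 most variable genes, a first principal component with 35.4% of the variance separated the genotypes, with KI between -42.9 and -18.6 and wt between 1.36 and 45.1. The second, with 30.1%, spread the experiments within each genotype, from -31.8 to 55.1 in wt. Markers of CD8 T cells summed to 3180 to 3470 CPM in KI and 2590 to 3330 CPM in wt. Those of macrophages, monocytes and neutrophils summed to 20.4 to 33.5 CPM over all 6 libraries. The 7 B cell markers summed to 138, 130.0 and 266 CPM in KI and 54.6, 79.4 and 157 CPM in wt, higher in KI in each experiment with the groups overlapping, and none is at 0. The 8 dendritic cell markers, mostly Cd74 and MHC class II genes that B cells share, summed to 289, 288 and 691 CPM in KI and 177, 185 and 458 CPM in wt. Markers of natural killer and gamma-delta T cells, mostly Trdc, summed to 14.7, 15.9 and 19.8 CPM in KI and 4.48, 8.6 and 11.3 CPM in wt, without overlap. The 4 CD4 T cell markers summed to 45.7 to 83.1 CPM in KI and 34.6 to 64.2 CPM in wt, and erythroid markers to under 0.5 CPM in every library. In every library 3 of the 8 dendritic cell markers (Itgax, Flt3 and Siglech), 4 of the 6 natural killer and gamma-delta markers and 5 of the 9 myeloid markers were under 1 CPM, while the dendritic cell gene Zbtb46 stood at 6.83 to 8.99 CPM. No gene of these marker lists was called between the genotypes. Among 6 further markers, of stroma and endothelium, Pecam1 was called higher in KI and is given below. What part these cells had in the differences below was not tested.

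Between KI and wt at 48 h, edgeR's quasi-likelihood test called 884 of 21183 genes (4.17%) at an adjusted p under 0.05. Of these, 483 (2.28%) were higher and 401 (1.89%) lower in KI. The median size was 0.96 on the log2 scale for higher genes and 0.85 for lower genes, and 230 and 158 differed at least 2-fold. The difference had the same sign in all 3 experiments for 483 of the higher and 400 of the lower genes. KI and wt libraries did not overlap for 479 and 393 of them, against 10.8% and 9.78% of all tested genes. The shared signs and the lack of overlap follow in large part from the calls, which used the same libraries, and are no separate evidence. Experiment 1 held the largest differences, with medians of 1.21 for higher and -0.96 for lower genes, against 0.70 and -0.71 in experiment 3 and 0.91 and -0.88 in experiment 5. The count of calls rested on single libraries. It was 253 without KI 1, 529 without KI 3, 580 without KI 5, 313 without wt 1, 1616 without wt 3 and 598 without wt 5. Without both libraries of experiment 1 it was 44, without both of experiment 3 it was 818, and without both of experiment 5 it was 399. With the experiment as a block 1005 genes (4.74%) were called, 842 of them among the 884.

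**Figure D1:**
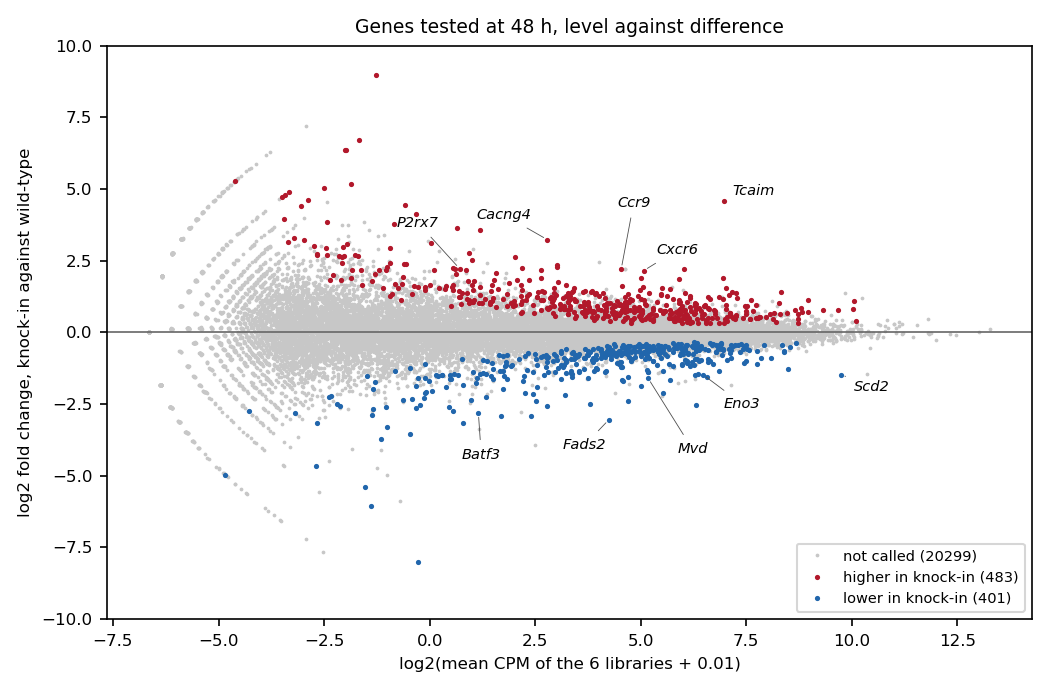
Each point is 1 of the 21183 genes tested, with the log2 of its mean CPM over the 6 libraries plus 0.01 on the x axis and its edgeR log2 fold change, KI against wt at 48 h, on the y axis. Red and blue points are the 483 higher and 401 lower genes, and 1 gene that was not called lies beyond the axis. Tcaim stands at 4.58, apart from the other genes of its level.

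The same contrast was read at earlier times in other libraries of the same mice, by edgeR. It called 1 gene at 24 h (0.00472%), Tcaim, and 24 naive (0.113%). Of the 483 genes higher at 48 h, 445 (92.1%) had a difference of the same sign at 24 h, and of the 401 lower genes 339 (84.5%), against 65.1% of all tested genes. Their median log2 fold changes at 24 h were 0.35 and -0.22. In naive cells the shares were 66.7% and 48.9% against 51.4% of all genes, with medians of 0.05 and 0.00. At an unadjusted p under 0.05 there were 3793 genes at 48 h, 1903 at 24 h and 434 naive.

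The 48 h genes were also placed against the course of activation in wt, taken between naive and 24 h wt libraries, which share no library with the 48 h comparison though they come from the same wt mice. Of the 483 genes higher in KI at 48 h, 247 (51.1%) fell and 56 (11.6%) rose in wt by 24 h. Of the 401 lower genes, 231 (57.6%) rose and 36 (8.98%) fell. Over all tested genes, 26.3% rose and 22% fell.

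Cholesterol synthesis was the pathway with the highest share of called genes among 29 lists examined. The mevalonate arm, which turns acetyl-CoA into farnesyl diphosphate, had 7 of 8 genes lower in KI. The branch from squalene to cholesterol had 9 of 12 lower. No gene of either list was called higher, and the share of all genes called lower was 1.89%. Median log2 fold changes were -1.09 and -1.0 against 0.00 over all genes. They were -1.36 and -1.31 in experiment 1, -1.06 and -0.82 in experiment 3, and -1.03 and -0.74 in experiment 5. All KI libraries lay below all wt libraries for 19 of these 20 genes, against 9.78% of all tested genes. In these bulk libraries, fewer cells of a type and less RNA per cell cannot be told apart.

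**Figure D2:**
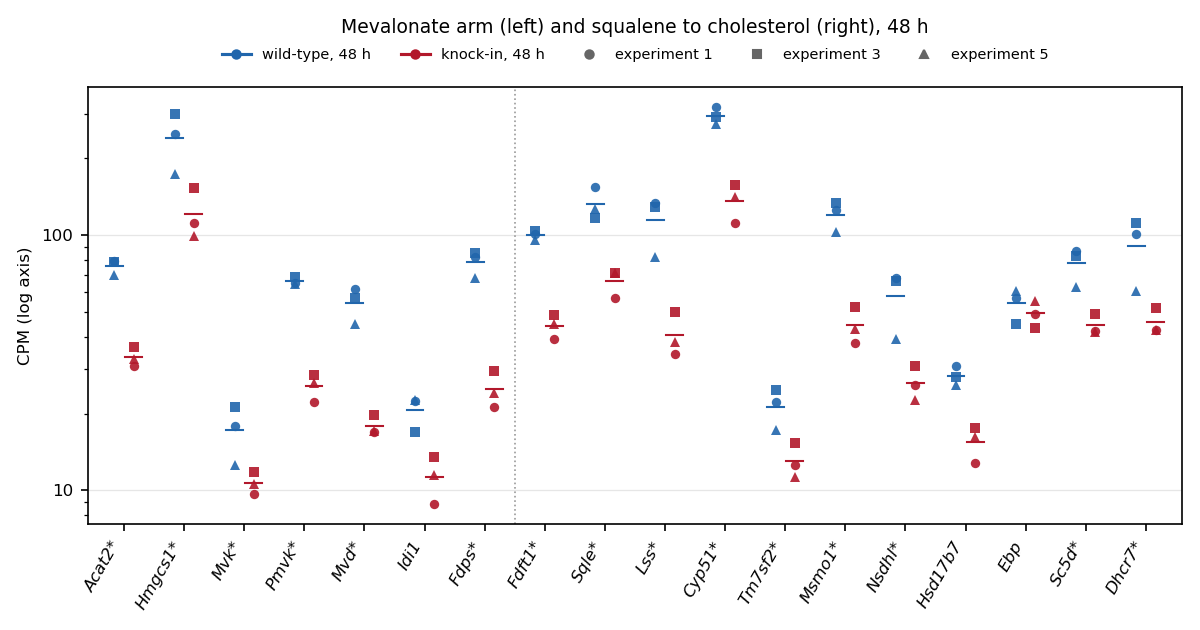
CPM on a log axis for 7 genes of the mevalonate arm and 11 from squalene to cholesterol, in pathway order, in 3 wt (blue) and 3 KI (red) libraries at 48 h. Lines are group means, symbols are experiments, and a star marks a call at adjusted p under 0.05. KI points lie below wt points for every gene drawn except Ebp.

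Mvd, Pmvk and Fdps had the smallest p of the mevalonate arm. Mvd (mevalonate diphosphate decarboxylase, ENSMUSG00000006517, chr8:122433601-122443422) had 16.9, 19.7 and 17.1 CPM in KI and 61.4, 56.8 and 44.7 CPM in wt. All 3 KI libraries were alike and far below every wt library, which gave -1.6 (SE 0.142, adjusted p 1.03e-05) on the log2 scale. Pmvk (phosphomevalonate kinase, chr3:89454541-89469013) had 22.2, 28.4 and 26.2 CPM in KI and 65.1, 68.4 and 64.4 CPM in wt, with no overlap and little spread in either group, at -1.36 (SE 0.14, adjusted p 4.95e-05). Fdps (farnesyl diphosphate synthase, chr3:89093588-89101959) had 21.1, 29.5 and 24.1 CPM in KI and 82.4, 85.5 and 68 CPM in wt, again with every KI library below every wt library, at -1.66 (SE 0.181, adjusted p 0.000102).

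The first steps of the arm were also lower. Acat2, which joins acetyl-CoA units, had 30.7, 36.5 and 32.7 CPM in KI and 79.3, 78.5 and 69.8 CPM in wt (-1.19, adjusted p 0.00366). Hmgcs1, HMG-CoA synthase, had 112, 154 and 99.6 CPM in KI and 248, 299 and 174 CPM in wt (-0.99, adjusted p 0.0183). The experiment 3 libraries were the highest of their genotype for Hmgcs1, and the groups did not overlap. Mvk, mevalonate kinase, fell less, by 0.69 on the log2 scale (9.67, 11.8 and 10.6 CPM in KI and 17.8, 21.2 and 12.6 CPM in wt, adjusted p 0.0328). Idi1, which isomerises isopentenyl diphosphate, had a log2 fold change of -0.87 and was not called (adjusted p 0.0748). Mvd, Pmvk, Fdps and Acat2 kept their calls with each of the 6 libraries left out in turn. Hmgcs1 was not called without KI 1, KI 5 or wt 1 (adjusted p up to 0.105). Mvk was called without wt 5 but without no other single library (adjusted p up to 0.17).

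From squalene onward, Fdft1, squalene synthase (chr14:63145150-63179578), had 39, 48.7 and 44.9 CPM in KI and 101, 104 and 96.2 CPM in wt. The KI libraries were below 49 CPM and the wt libraries above 96, at -1.19 (SE 0.119, adjusted p 4.90e-05). Msmo1, a sterol-C4 demethylase (chr8:64718139-64733792), had 37.9, 52.5 and 42.8 CPM in KI and 126, 133 and 103 CPM in wt (-1.44, adjusted p 0.000105). Lss, which closes the sterol rings, had 34.2, 49.9 and 38.1 CPM in KI and 134, 129 and 82.5 CPM in wt (-1.5, adjusted p 0.000913). Its lowest wt library was wt 5, as it was for Nsdhl, Dhcr7 and Msmo1. Nsdhl, Cyp51 and Dhcr7, 3 later enzymes of the ring, had log2 fold changes of -1.14, -1.1 and -1.0 (adjusted p 0.00156, 0.00451 and 0.00561). Cyp51 had the highest level per length of the branch in wt, a mean of 74.4 FPKM against 34.3 in KI. Sc5d, Tm7sf2 and Sqle, the squalene epoxidase, fell by 0.8, 0.71 and 1.0 on the log2 scale (adjusted p 0.00513, 0.0247 and 0.0293). Hsd17b7 (-0.86, adjusted p 0.0656) did not overlap between genotypes but was not called. Ebp had 49.3, 43.4 and 55.3 CPM in KI and 56.7, 45 and 60.6 CPM in wt (-0.13, adjusted p 0.686), and its groups overlapped. Fdft1, Msmo1, Lss, Nsdhl, Cyp51, Dhcr7 and Sc5d stayed called whichever of the 6 libraries was left out. Tm7sf2 was not called without KI 1, KI 5, wt 1 or wt 3 (adjusted p up to 0.127). Sqle was called without wt 3 but without no other single library (adjusted p up to 0.16).

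The mevalonate list held 4 calls without KI 1 and without both libraries of experiment 1 it held 3. The squalene list held 7 without KI 1, without KI 5 or without wt 1, and 2 without both libraries of experiment 1. At 24 h, in other libraries of these mice, the medians of both lists were -0.44 with no call, and in naive cells they were 0.01 and -0.01. In wt, 7 of the 8 and 11 of the 12 genes rose between naive and 24 h, against 26.3% of all tested genes. Mvd was the exception of the first list. In wt its level was 20.6 ± 1.98 CPM before stimulation, 24.2 ± 3.6 by 24 h and 54.3 ± 8.66 by 48 h (SD, n = 3 each). In KI it was 21.8 ± 2.28, 21.2 ± 1.7 and 17.9 ± 1.6. Its 48 h difference differed from its 24 h difference by -1.41 on the log2 scale, the only gene called in that test of 21183 (0.00472%). That test called no gene without KI 1, without KI 5 or without wt 1, 2 without KI 3 and 5 without wt 3. Fdps by contrast already stood at 35.7 ± 11.01 CPM in wt and 24.7 ± 1.43 in KI at 24 h, and at 48 h wt had 78.6 ± 9.29 and KI 24.9 ± 4.23.

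Fdps shares a same-strand exon with the gene model Gm43738 and Fdft1 an opposite-strand exon with Ctsb, so their counts are uncertain. Further gene models called lower resemble or overlap these genes. Gm3571 and Gm5873 are processed pseudogenes 98.9% and 96.7% identical to Fdps, and Gm6781 is 97.4% identical to Fdft1. Their log2 fold changes, -1.56, -1.66 and -1.22, with -1.14 for Gm43738, were near those of the parent genes and are no separate evidence.

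The promoters of these enzymes are shown because 16 of the 20 genes fell together. RefSeq windows from 250 bases before to 50 after the transcript start (GRCm38.p6) were found for 15 of the 20 genes. Capitals mark the box CCAAT, bound by NF-Y, on either strand (ATTGG on the other), and the sterol response element core TCACNCCAC. The E-box was searched as well and is not marked.

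Mvd: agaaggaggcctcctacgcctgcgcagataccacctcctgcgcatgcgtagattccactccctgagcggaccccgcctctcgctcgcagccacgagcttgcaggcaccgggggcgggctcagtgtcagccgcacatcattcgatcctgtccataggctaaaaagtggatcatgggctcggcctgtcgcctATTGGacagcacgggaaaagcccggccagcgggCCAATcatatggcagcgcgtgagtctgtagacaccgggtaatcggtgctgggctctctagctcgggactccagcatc
Msmo1: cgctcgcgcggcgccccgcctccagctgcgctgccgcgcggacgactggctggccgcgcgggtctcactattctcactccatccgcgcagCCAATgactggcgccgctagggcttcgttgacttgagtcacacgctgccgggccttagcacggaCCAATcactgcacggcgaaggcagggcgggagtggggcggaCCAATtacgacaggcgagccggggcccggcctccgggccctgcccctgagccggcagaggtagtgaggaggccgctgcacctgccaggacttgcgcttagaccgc
Hmgcs1: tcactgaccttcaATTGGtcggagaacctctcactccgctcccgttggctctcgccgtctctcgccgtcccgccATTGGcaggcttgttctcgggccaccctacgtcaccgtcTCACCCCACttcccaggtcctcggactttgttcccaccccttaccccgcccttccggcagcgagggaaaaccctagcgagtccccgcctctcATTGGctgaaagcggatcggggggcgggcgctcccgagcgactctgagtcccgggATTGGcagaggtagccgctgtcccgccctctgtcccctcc
Acat2: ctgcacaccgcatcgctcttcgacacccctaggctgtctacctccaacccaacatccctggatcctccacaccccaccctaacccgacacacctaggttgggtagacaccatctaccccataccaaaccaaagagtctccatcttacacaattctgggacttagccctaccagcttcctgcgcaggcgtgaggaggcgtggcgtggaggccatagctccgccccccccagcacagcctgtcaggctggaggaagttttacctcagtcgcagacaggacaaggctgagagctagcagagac

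These lie at chr8:122443373-122443672 (minus strand), chr8:64733529-64733828 (minus), chr13:119690101-119690400 (plus) and chr17:12960676-12960975 (minus). At least 1 CCAAT box stood in 14 of the 15 genes (93.3%), with 2 in Mvd, 3 in Msmo1 and 4 in Hmgcs1 and none in Acat2. Over all 27025 genes with a window the share was 41.1%, among those called lower 50.9% (145 of 285) and among those called higher 38.7% (137 of 354). The sterol response element letters were found in Hmgcs1 alone, at -137 from the start, 1 of 15 genes (6.67%) against 1.44% of all windows. The E-box CACGTG stood in 3 of 15 genes, against 8.09% of all windows. A match describes letters in the window and not a bound site.

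Genes that sense and move sterols split by direction. Of 19 tested, 4 were lower and 2 higher, against 1.89% and 2.28% of all genes, and the list's median was -0.14. Insig1, which holds SREBP in the endoplasmic reticulum and is itself an SREBP target, had 37.6, 54.2 and 42.8 CPM in KI and 91.1, 95.1 and 76.3 CPM in wt (-0.96, adjusted p 0.0188). Every KI library was below every wt library. Stard4, a sterol carrier (-0.96, adjusted p 0.00116), and Srebf1, which encodes SREBP1 (-0.57, adjusted p 0.0372), fell too. Those that rose are targets of the oxysterol receptors LXR. Mylip, a ubiquitin ligase, had 18.6, 13.3 and 14.2 CPM in KI and 6.96, 8.17 and 9.48 CPM in wt (0.9, adjusted p 0.00647). Abca1, the cholesterol exporter, had 12.4, 13.5 and 8.8 CPM in KI and 6.63, 7.47 and 5.7 CPM in wt (0.81, adjusted p 0.0317), without overlap although KI 5 stood close to the wt range. Another such target, Abcg1, had a log2 fold change of 0.59 (adjusted p 0.238). Srebf2, which encodes the SREBP that drives the sterol enzymes, had 234, 284 and 251 CPM in KI and 349.8, 452 and 221 CPM in wt, with wt 5 below all KI libraries, and was not called (-0.41, adjusted p 0.225). Stard4 still passed the threshold without any 1 of the 6 libraries. Insig1 was not called without KI 1, KI 5 or wt 1 (adjusted p up to 0.127). Srebf1 was not called without KI 1, KI 5, wt 1 or wt 3 (adjusted p up to 0.148). Mylip was not called without KI 1 (adjusted p 0.055). Abca1 was not called without KI 1, KI 3, wt 1 or wt 5 (adjusted p up to 0.139). The 6 calls became 1 without KI 1, 3 without KI 5, 2 without wt 1 and 0 without both libraries of experiment 1.

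Fatty acid synthesis and desaturation had 7 of 21 genes lower and none higher, against 1.89% of all genes called lower, and the list's median was -0.38. The 7 lie in activation, elongation and desaturation. Fads2, the delta-6 desaturase (chr19:10064164-10101503), had 1.97, 7.78 and 2.48 CPM in KI and 40.5, 48.4 and 12.4 CPM in wt. It varied widely within each genotype, but its highest KI library was still below its lowest wt library, wt 5, at -3.05 (SE 0.705, adjusted p 0.0188). Scd2, a stearoyl-CoA desaturase, had 381, 706 and 276 CPM in KI and 1287, 1683 and 813 CPM in wt (-1.47, adjusted p 0.0415). Acsl3, an acyl-CoA synthetase, had 15.9, 28.7 and 15.8 CPM in KI and 50.3, 55.9 and 49.8 CPM in wt (-1.37, adjusted p 0.000691). Elovl6, a fatty acid elongase, had 25.4, 33 and 19.3 CPM in KI and 59, 45.4 and 51.2 CPM in wt (-1.0, adjusted p 0.00681). Fads1 (-0.7, adjusted p 0.0169), Tecr (-0.42, adjusted p 0.0317) and Acsl5 (-0.38, adjusted p 0.04995) fell less. Fasn, fatty acid synthase, had 319, 379.5 and 298 CPM in KI and 536, 364 and 331 CPM in wt (-0.3, adjusted p 0.671) with the groups overlapping, and Acly, which supplies cytosolic acetyl-CoA, had 284, 317 and 296 CPM in KI and 462, 408 and 350 CPM in wt (-0.45, adjusted p 0.138). Acsl3 and Elovl6 kept their calls with each of the 6 libraries left out in turn. Fads2 and Fads1 were not called without KI 1, KI 5 or wt 1 (adjusted p up to 0.124). Scd2 was not called without KI 1, KI 5, wt 1 or wt 3 (adjusted p up to 0.189). Tecr was not called without KI 1, KI 3, wt 1 or wt 3 (adjusted p up to 0.142). Acsl5 was called without wt 3 but without no other single library (adjusted p up to 0.222). With the experiment as a block, Acsl5 had an adjusted p of 0.0537. The 7 calls became 2 without KI 1, 3 without KI 5, 2 without wt 1 and 1 without both libraries of experiment 1. They became 3 with no filter on low counts and 0 in a fit of the 6 compared libraries only. In mitochondrial fatty acid oxidation 1 of 20 genes was called, against 4.17% of all genes. It was the electron carrier gene Etfa (-0.54, adjusted p 0.019). Etfa was not called without KI 1, KI 3 or wt 5 (adjusted p up to 0.102). The oxidation list held 2 calls without wt 3.

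**Figure D3:**
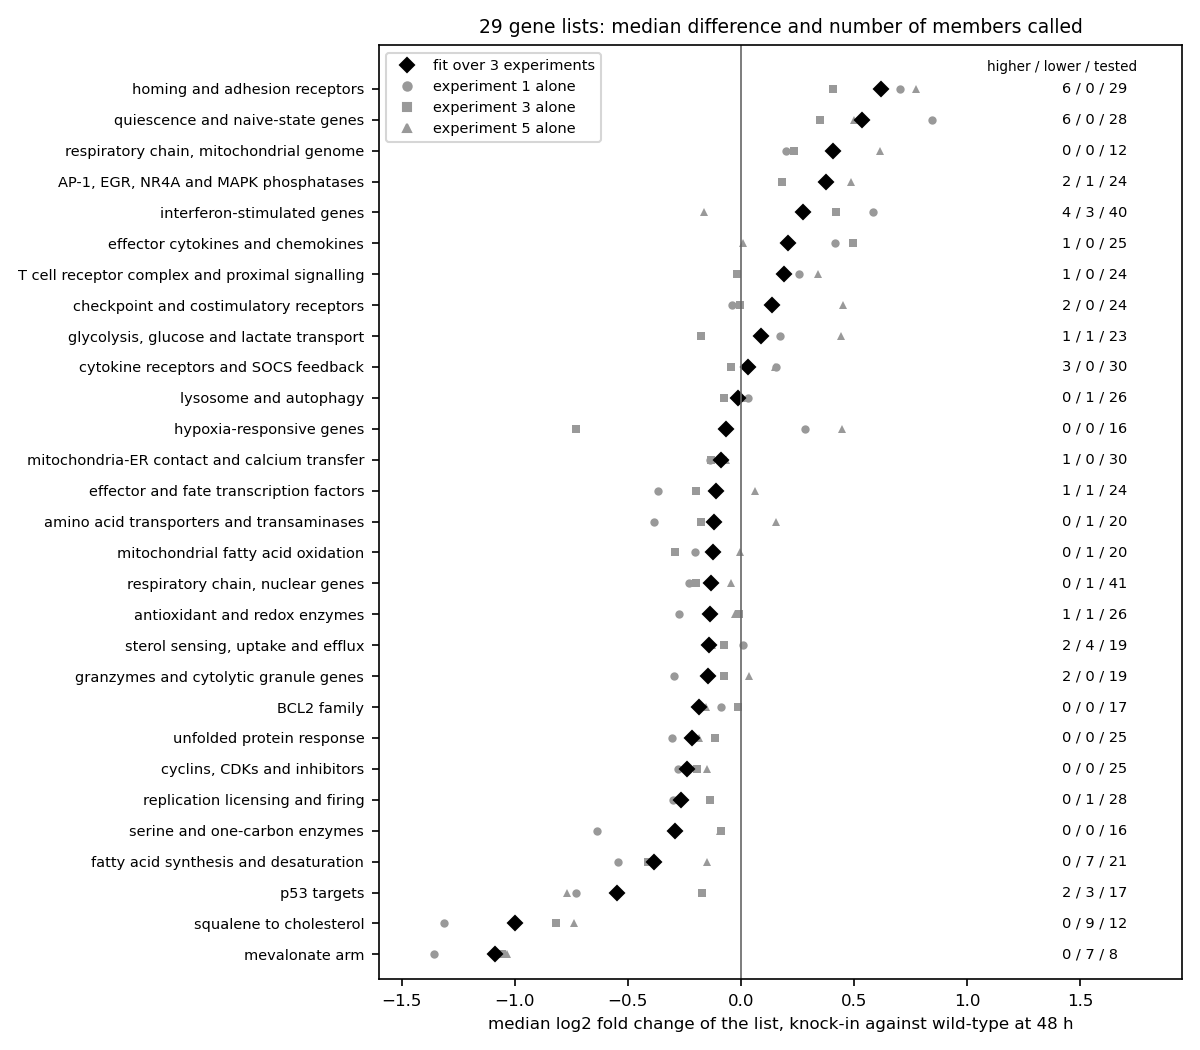
Median log2 fold change of each of 29 gene lists, KI against wt at 48 h, from the fit (black) and within experiments 1, 3 and 5 (grey), with the numbers of members called higher, called lower and tested at the right. The mevalonate arm and the squalene branch lie lowest at -1.09 and -1.0, and homing receptors highest at 0.62.

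Of 28 genes of the quiescent, naive state, 6 were called higher in KI and none lower, against 2.28% of all genes called higher. The list's median was 0.53, and 22 of its genes were not called. In wt, 19 of the 28 fell and 3 rose between naive and 24 h, against 22% and 26.3% of all tested genes. Klf2, the transcription factor that keeps T cells quiescent and recirculating (chr8:72319033-72321656), had 55, 45.2 and 48.5 CPM in KI and 13.9, 20.9 and 15.1 CPM in wt. All KI libraries were more than 2-fold above the highest wt library, and the difference on the log2 scale was 1.58 (SE 0.292, adjusted p 0.00494). It had been 559 ± 46.1 CPM in KI and 440.3 ± 31.5 in wt before stimulation (SD, n = 3 each), and 164 ± 67.7 against 58.9 ± 29.6 at 24 h, where the difference of 1.48 was not called (adjusted p 0.184). Klf3, of the same family, had 91.7, 82.3 and 71.9 CPM in KI and 31.3, 41.5 and 41.2 CPM in wt (1.11, adjusted p 0.0109). Il6ra, an interleukin-6 receptor chain that naive cells carry, had 47.2, 25.9 and 30.6 CPM in KI and 15.1, 15.1 and 14.2 CPM in wt (1.23, adjusted p 0.00362), with KI 1 the highest and wt nearly constant.

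Btg2 and Tob1, antiproliferative proteins of 1 family, rose by 0.74 (adjusted p 0.0239) and 0.7 (adjusted p 0.0404). Of the best expressed members that were not called, Tcf7 (0.3, adjusted p 0.382) and Ccr7 (-0.19, adjusted p 0.513) overlapped between genotypes, and Dgka, a brake on diacylglycerol signalling, had 529, 409.8 and 352 CPM in KI and 237, 285 and 255 CPM in wt without overlap (0.73, adjusted p 0.0503). Klf2 and Il6ra stayed called whichever of the 6 libraries was left out. Klf3 was not called without KI 1 or wt 1 (adjusted p up to 0.0694). Btg2 was not called without KI 1, KI 5, wt 1 or wt 5 (adjusted p up to 0.134). Tob1 was called without wt 3 but without no other single library (adjusted p up to 0.177). The list held 2 calls without KI 1 or without wt 1, 10 without wt 3 and 0 without both libraries of experiment 1.

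**Figure D4:**
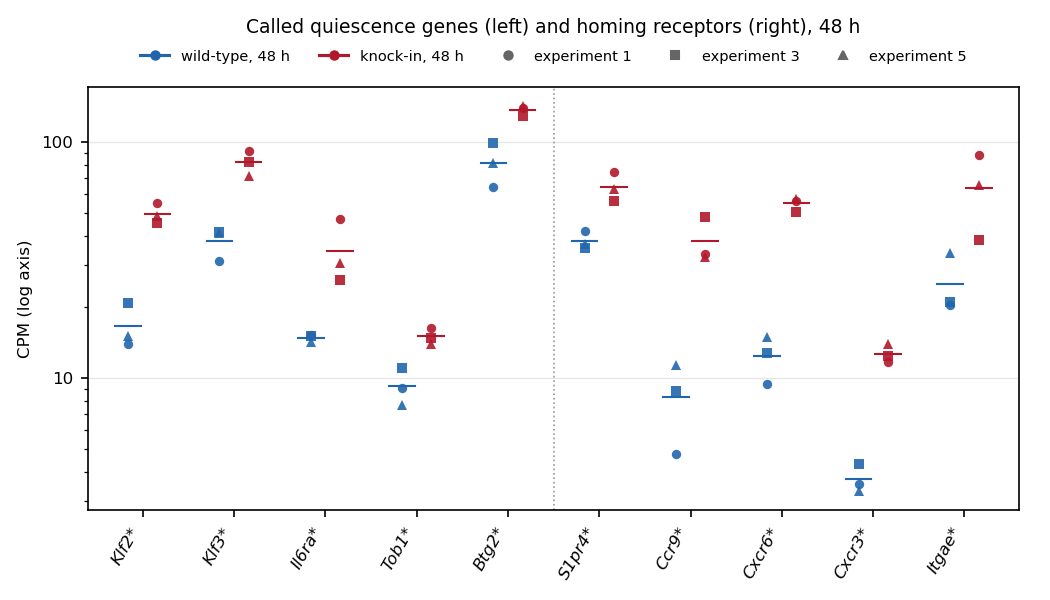
CPM on a log axis for 5 called quiescence genes and 5 called homing receptors in 3 wt (blue) and 3 KI (red) libraries at 48 h, with lines at group means and a symbol for each experiment. Every KI library lies above every wt library for all 10 genes.

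Homing and adhesion receptors had 6 of 29 genes higher and none lower, against 2.28% of all genes called higher. The list's median was 0.62. Cxcr6, a receptor that guides T cells into tissues such as the liver (chr9:123806475-123811760), had 56.4, 50.6 and 57.5 CPM in KI and 9.46, 12.7 and 14.9 CPM in wt. The KI libraries were within a narrow range above all wt libraries, at 2.15 (SE 0.295, adjusted p 0.000658). Ccr9, which directs cells to the small intestine (chr9:123678439-123784330), had 33.5, 48.2 and 32.7 CPM in KI and 4.74, 8.77 and 11.3 CPM in wt, a difference of 2.2 (SE 0.351, adjusted p 0.00175). Naive, 24 h and 48 h wt libraries averaged 207 ± 7.54, 20.1 ± 10.2 and 8.28 ± 3.32 CPM of Ccr9 (SD, n = 3 each). KI had 198 ± 15.3, 35.9 ± 7.42 and 38.1 ± 8.77 CPM. For Cxcr6 the wt series was 74.5 ± 22.8, 46.4 ± 11.9 and 12.3 ± 2.73 CPM. The KI libraries had 67.8 ± 21.6, 68.1 ± 18.5 and 54.9 ± 3.68 CPM.

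Cxcr3, the receptor for interferon-induced chemokines, had 11.7, 12.3 and 13.9 CPM in KI and 3.54, 4.31 and 3.32 CPM in wt (1.76, adjusted p 0.0177). Itgae, the CD103 integrin chain of tissue-resident cells, had 87.7, 38.5 and 65.7 CPM in KI and 20.4, 21 and 33.9 CPM in wt (1.35, adjusted p 0.0184), highest in KI 1 and with KI 3 close to wt 5. S1pr4, a sphingosine phosphate receptor, had 74.4, 56.3 and 63.2 CPM in KI and 41.9, 35.5 and 36.9 CPM in wt (0.76, adjusted p 0.0169). Itga4 had 289.9, 281 and 189 CPM in KI and 158, 172 and 111 CPM in wt and missed the threshold (0.78, adjusted p 0.0533), and Itgal was not called (0.47, adjusted p 0.158). Ccr9 and Cxcr6 lie within 1 Mb of Tcaim on chromosome 9. Of 35 tested genes within that distance these 2 were called at 48 h (5.71%, against 4.17% of all genes). None was called at 24 h or naive, where 0.00472% and 0.113% of all genes were, so these times cannot tell the region apart. Cxcr6 and Ccr9 still passed the threshold without any 1 of the 6 libraries. Cxcr3 was not called without KI 1, KI 5, wt 1 or wt 5 (adjusted p up to 0.0802). Itgae was not called without KI 1 or wt 1 (adjusted p up to 0.134). S1pr4 was not called without KI 1 or wt 5 (adjusted p up to 0.112). The list held 2 calls without KI 1, 3 without wt 1 or wt 5, 9 without wt 3 and 1 without both libraries of experiment 1. Like the quiescence genes, the marker sums given above for natural killer and gamma-delta T cells, B cells and dendritic cells were higher in KI within each experiment, the first of them without overlap, and their part in either list was not tested.

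Effector lists held from 1 of 25 to 2 of 19 called genes, against 4.17% of all genes. Of 24 transcription factors of effector fate, Id2, which favours effector survival, was higher (40.8, 28.3 and 42 CPM in KI and 16.8, 18.1 and 28.7 CPM in wt, 0.8, adjusted p 0.0198), with KI 3 just under wt 5. Batf3, a factor of the AP-1 group, was lower (0.35, 0.398 and 0.896 CPM in KI and 5.22, 3.45 and 2.98 CPM in wt, -2.82, adjusted p 0.0164). Myc, the driver of growth metabolism, had 254, 314 and 474 CPM in KI and 376, 304 and 361 CPM in wt (0.00, adjusted p 1.00). Of 19 granule genes Srgn, the proteoglycan that packs granzymes, and Tnfsf10, the death ligand TRAIL, were higher (0.75 and 0.54, adjusted p 0.0286 and 0.0187). Gzmb, the main granzyme of activated cells, had 499, 758 and 862 CPM in KI and 2077, 1950 and 1784 CPM in wt. Its KI libraries were all below wt, and it was not called (-1.46, SE 0.667, adjusted p 0.257, and 0.145 with the experiment as a block). Id2 was not called without KI 1, KI 5 or wt 1 (adjusted p up to 0.114). Batf3 was not called without KI 1, KI 3 or wt 1 (adjusted p up to 0.109). Srgn was not called without KI 1, KI 3, KI 5 or wt 1 (adjusted p up to 0.152). Tnfsf10 was not called without KI 1, KI 5, wt 1 or wt 5 (adjusted p up to 0.105). Without wt 3 the list of factors held 4 calls.

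Of 25 cytokines and chemokines, Tnfsf8, the CD30 ligand, was called, with 227, 206 and 266 CPM in KI and 111, 95.2 and 162 CPM in wt (0.92, adjusted p 0.0114). Of 30 cytokine receptors and feedback genes, 3 rose, against 2.28% of all genes called higher. Il2rg, the common gamma chain (chrX:101264378-101268255), had 805, 724 and 877 CPM in KI and 478, 450.2 and 472 CPM in wt. Both groups were tight and apart, at 0.78 (SE 0.105, adjusted p 0.000532). Il6ra is given above, and Tgfbr1, a TGF-beta receptor, had 32.6, 31.9 and 31.4 CPM in KI and 18.6, 23.8 and 15 CPM in wt (0.74, adjusted p 0.00715). Il2ra, the inducible high-affinity chain, had 242, 242 and 382 CPM in KI and 520.2, 385 and 414 CPM in wt and was not called (-0.61, adjusted p 0.347). Of 24 checkpoint and costimulatory receptors, Cd274, which encodes PD-L1, had 99.7, 88.3 and 117 CPM in KI and 47.4, 49.4 and 76.9 CPM in wt (0.81, adjusted p 0.0388) and Tnfrsf14 rose by 0.75 (adjusted p 0.0466). Il2rg and Tgfbr1 kept their calls with each of the 6 libraries left out in turn. Tnfsf8 was not called without wt 1 (adjusted p 0.0663). Cd274 was called without wt 5 but without no other single library (adjusted p up to 0.179). Tnfrsf14 was not called without KI 1, KI 3, wt 1 or wt 5 (adjusted p up to 0.226). The cytokine list held 3 calls without wt 5 and 2 without KI 5 or wt 3. Il2rg overlaps the model Gm20489 on the same strand, which was called with it (0.79), so the counts of both are uncertain.

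Interferon-stimulated genes, the antiviral set switched on by interferon receptors, were called in both directions, 4 higher and 3 lower of 40. Over all genes the shares were 2.28% and 1.89%. Ifit1bl1 had 124, 93.5 and 102 CPM in KI and 15.4, 13.6 and 40.6 CPM in wt (2.2, adjusted p 0.0224) and Ifit2 57.9, 60.4 and 50.5 CPM in KI and 32.2, 38.4 and 35.3 CPM in wt (0.67, adjusted p 0.00362). Oas2, a sensor of double-stranded RNA, had 5.66, 5.71 and 5.38 CPM in KI and 0.954, 0.781 and 3.42 CPM in wt (1.71, adjusted p 0.042), wt 5 standing above the other wt libraries. Lower were Bst2, which encodes tetherin, with 48, 53.1 and 64.7 CPM in KI and 108, 69.1 and 155 CPM in wt (-1.0, adjusted p 0.0148), Oas3 with 25.5, 25.5 and 21.2 CPM in KI and 33.6, 48.4 and 32.6 CPM in wt (-0.66, adjusted p 0.0239) and Dhx58 with 13.8, 14.9 and 13.7 CPM in KI and 22.4, 24 and 28.9 CPM in wt (-0.83, adjusted p 0.0283).

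The list's median difference was 1.25 naive, 0.76 at 24 h and 0.27 at 48 h. Of its 40 members 12 were called naive, against 0.113% of all genes. None was called at 24 h, against 0.00472% of all genes. At 48 h it was 0.58 in experiment 1, 0.42 in experiment 3 and -0.16 in experiment 5. In naive cells Oas3 stood at 187 ± 5.84 CPM in KI, against 63.6 ± 7.85 in wt (SD, n = 3 each), a difference of 1.56, and at 48 h lay below wt. The change in its difference was -2.22 (adjusted p 0.00021), in an interaction test that called 82 genes (0.387%). That count was 21 without KI 1, 24 without wt 1, 45 without KI 5 and 170 without wt 3. Dhx58 turned likewise, from 1.39 naive to -0.83. Ifit2 stayed called whichever of the 6 libraries was left out. Ifit1bl1 was not called without KI 1, wt 1 or wt 3 (adjusted p up to 0.112). Oas2 was called without wt 5 but without no other single library (adjusted p up to 0.189). Bst2 was not called without KI 1, KI 3 or wt 5 (adjusted p up to 0.0996). Oas3 was not called without KI 1, KI 3, KI 5 or wt 3 (adjusted p up to 0.0913). Dhx58 was called without wt 3 but without no other single library (adjusted p up to 0.129). The list held 2 calls without KI 1, 3 without KI 3, 4 without KI 5, wt 1 or wt 3, 9 without wt 5 and 0 without both libraries of experiment 1. Oas genes resemble each other, so reads could have been shared among them.

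**Figure D5:**
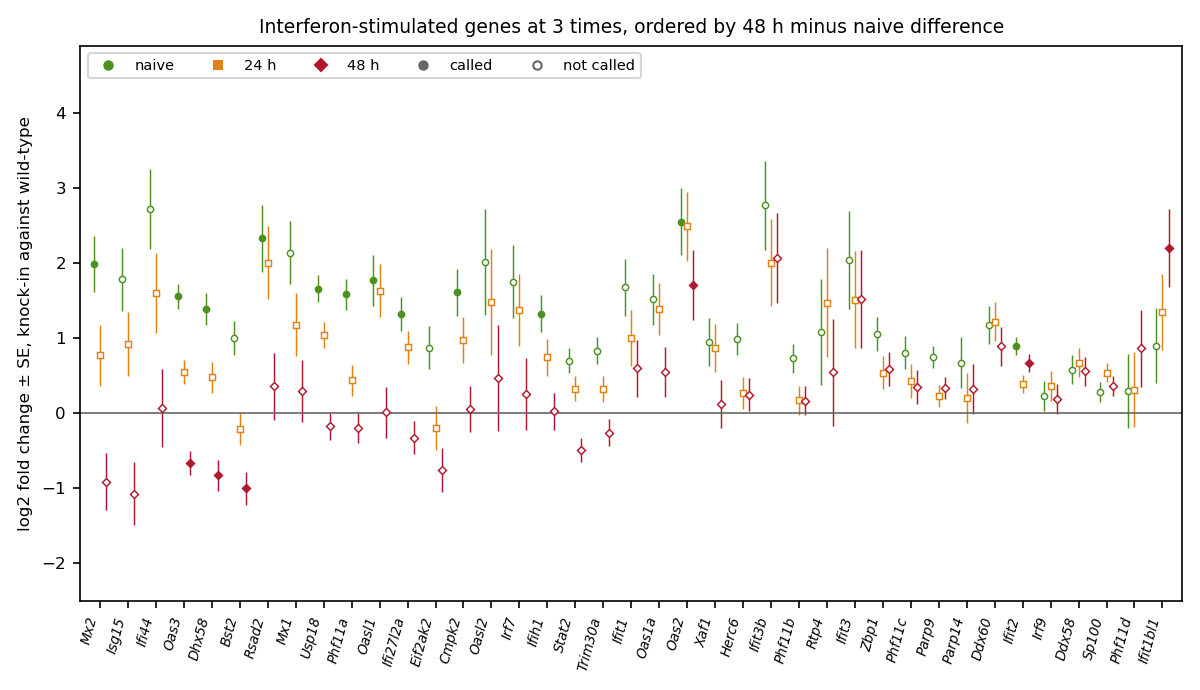
edgeR log2 fold change with its SE, KI against wt, of 39 interferon-stimulated genes in naive cells (green), at 24 h (orange) and at 48 h (red), ordered by the change from naive to 48 h, with filled symbols for calls. Naive values lie above zero for all genes, while at 48 h Bst2, Oas3 and Dhx58 were called below zero and Ifit2, Ifit1bl1 and Oas2 above.

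Other metabolic lists held from none to 2 called genes each, against 4.17% of all genes. Of 23 genes of glycolysis and glucose and lactate transport, Eno3, the muscle-type enolase (chr11:70657202-70662513), was lower, with 41.7, 62 and 37.3 CPM in KI and 163, 126 and 104 CPM in wt at -1.48 (SE 0.178, adjusted p 0.000284). Ldhb, the lactate dehydrogenase chain that favours pyruvate, was higher (0.74, adjusted p 0.0329). The list's median was 0.09. None of 16 serine and one-carbon enzymes was called, with a median of -0.29, and 1 of 20 amino acid transporters and transaminases was, Got1 (-0.6, adjusted p 0.013). Of 41 nuclear genes of the respiratory chain Uqcrfs1 was lower (-0.46, adjusted p 0.0235), and none of the 12 genes of the mitochondrial genome was called, with a median of 0.41. Of 30 genes of mitochondria-ER contacts and calcium transfer, the subject of the series title, 1 was called. It was Osbpl5, a lipid carrier at those contacts, with 17.9, 17.6 and 14.3 CPM in KI and 10.1, 10.4 and 9.12 CPM in wt (0.75, adjusted p 0.0042), and the list's median was -0.09. Eno3 and Osbpl5 still passed the threshold without any 1 of the 6 libraries. Ldhb was called without wt 3 but without no other single library (adjusted p up to 0.159). Got1 was not called without KI 1, KI 3 or wt 1 (adjusted p up to 0.0947). Uqcrfs1 was not called without KI 1, KI 3, wt 1 or wt 5 (adjusted p up to 0.132). The nuclear respiratory list held 4 calls without wt 3 and 3 without KI 5 or with the experiment as a block. Without wt 3 the serine list held 1 call and the contact list 3. The median of the mitochondrial genome was 0.26 without KI 1 and 0.15 without wt 5.

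Among cell cycle and stress lists the p53 targets held 5 calls of 17 and the others none or 1, against 4.17% of all genes. None of 25 cyclins, kinases and inhibitors was called, with a median of -0.24, and of 28 replication genes Orc5 was (-0.48, adjusted p 0.0228), with a median of -0.27. The unfolded protein response (25 genes, median -0.22), the BCL2 family (17 genes, median -0.19) and hypoxia genes (16 genes, median -0.07) held none, and lysosome genes 1 of 26, the protease Ctsl (-0.97, adjusted p 0.0129). Of 17 p53 targets, 3 were lower and 2 higher, with a median of -0.55. Zmat3 (60.9, 83.2 and 54.9 CPM in KI and 127, 118 and 135 CPM in wt, -0.93, adjusted p 0.00451), Ccng1 (-0.68, adjusted p 0.041) and the death receptor gene Tnfrsf10b (-0.75, adjusted p 0.0259) fell. Sesn1, a brake on mTORC1, rose, with 140, 132 and 89.8 CPM in KI and 57.8, 81.2 and 53.4 CPM in wt (0.91, adjusted p 0.00596), as did Btg2. Zmat3 and Sesn1 kept their calls with each of the 6 libraries left out in turn. Orc5 was not called without KI 1, KI 3, KI 5 or wt 5 (adjusted p up to 0.0974). Ctsl was not called without KI 1, wt 1 or wt 5 (adjusted p up to 0.0704). Ccng1 and Tnfrsf10b were called without wt 3 but without no other single library (adjusted p up to 0.197). Without wt 3 the calls numbered 1 for cyclins and kinases, 3 each for replication, unfolded protein response and BCL2 genes and 4 for hypoxia genes. The unfolded protein response held 1 call without KI 5. The hypoxia median ran from -0.44 without both libraries of experiment 5 to 0.38 without wt 3. The p53 list held 9 calls without wt 3, 2 or 3 without any other library and 0 without both libraries of experiment 1.

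Signalling and antioxidant lists held from 1 of 24 to 3 of 24 called genes, against 4.17% of all genes. Among 24 immediate early genes and MAPK phosphatases, Nr4a3, an orphan nuclear receptor induced by T cell receptor signals, was lower, with 114, 292 and 222 CPM in KI and 463, 586 and 459.9 CPM in wt (-1.26, adjusted p 0.0145). KI 1 was its lowest library by far. Spry1, a feedback inhibitor of ERK signalling, was higher, with 45.6, 51.5 and 92 CPM in KI and 18.8, 26.3 and 32.4 CPM in wt (1.29, adjusted p 0.0189), and Egr4 had 2.12, 3.42 and 4.58 CPM in KI and 0.441, 0.693 and 0.617 CPM in wt (2.53, adjusted p 0.0485). Of 24 genes of the receptor complex and its nearest kinases, Fyn was called (0.36, adjusted p 0.0237). Of 26 antioxidant genes, Pon2, a lactonase, was higher, with 39, 37.2 and 37.3 CPM in KI and 22.5, 21.8 and 22.7 CPM in wt and no overlap (0.76, adjusted p 0.000302), and Gss, glutathione synthetase, lower (-0.53, adjusted p 0.023). Pon2 stayed called whichever of the 6 libraries was left out. Nr4a3 was not called without KI 1 (adjusted p 0.0783). Spry1 was not called without KI 5 or wt 1 (adjusted p up to 0.107). Egr4 was called in no fit that left out 1 library (adjusted p up to 0.185). Fyn was not called without KI 1, KI 3, KI 5 or wt 1 (adjusted p up to 0.13). Gss was not called without KI 1, KI 3, wt 1 or wt 5 (adjusted p up to 0.105). Without wt 3 the antioxidant list held 7 calls and the receptor complex 2.

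Outside the lists, the genes called higher were led by Pglyrp2 (1.2) and the chromatin reader gene Brpf3 (1.13), each at an adjusted p of 0.000284. Selenow, a selenoprotein, had 109, 88.2 and 108 CPM in KI and 40.9, 49.6 and 35 CPM in wt (1.28, adjusted p 0.000302). Vipr1, a receptor for vasoactive intestinal peptide that resting T cells carry, had 45.4, 32.5 and 28.8 CPM in KI and 9.38, 12 and 13.5 CPM in wt (1.61, adjusted p 0.000302). Pecam1, an adhesion molecule of naive T cells and endothelium, had 196, 173 and 146 CPM in KI and 86.8, 91.7 and 86.3 CPM in wt (0.96, adjusted p 0.000875), while the other endothelial and stromal markers Cdh5, Col1a1, Col1a2, Col3a1 and Dcn were each under 1 CPM in all 6 libraries. P2rx7, the ATP-gated channel, had 2.67, 1.99 and 3.36 CPM in KI and 0.501, 0.693 and 0.523 CPM in wt (2.22, adjusted p 0.000691). Cacng4, a calcium channel subunit, had 12.6, 12.2 and 12.5 CPM in KI and 0.667, 2.6 and 0.71 CPM in wt (3.23, adjusted p 0.000691), with wt 3 above the other wt libraries. Galnt4 (1.4), Rbmx (1.06), Smap2 (0.96) and Nedd9 (0.8) completed those of smallest p. The calls of all these genes held without each of the 6 libraries in turn.

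The lower genes of smallest p outside the lists included Slc39a10, a zinc importer (chr1:46807544-46892852). It had 50.9, 70.9 and 75 CPM in KI and 211, 162 and 129 CPM in wt, lowest in KI 1 and highest in wt 1 and without overlap, at -1.35 (SE 0.177, adjusted p 0.000429). Hemk1, a glutamine methyltransferase of mitochondrial translation release factors, had 14.2, 11.4 and 13.7 CPM in KI and 37.8, 32.5 and 46.6 CPM in wt (-1.57, adjusted p 0.000306). The transcription factor gene Zfp341 had 7.86, 9.84 and 9.58 CPM in KI and 24.1, 18.1 and 22.4 CPM in wt (-1.24, adjusted p 0.000284). Slc9a5, a sodium-proton exchanger, had a difference of -1.37 and Slc52a3, a riboflavin transporter, of -1.61 (adjusted p 0.000691 for both). These calls too held without each library in turn.

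Apart from Tcaim, Cacng4 and Fads2, given above, the largest differences were mostly of genes at low levels. Among higher genes, Wnt3 had 1.15, 1.68 and 1.62 CPM in KI and 0.0596, 0.101 and 0.0938 CPM in wt (4.11, adjusted p 0.0143) and Il1r2, a decoy receptor for interleukin-1, had 4.32, 4.45 and 3.87 CPM in KI and 0.0954, 0.328 and 0.657 CPM in wt (3.55, adjusted p 0.0342). Gng4 (3.64), Galnt14 (3.79), Fam160a1 (3.1) and Olr1 (4.44) were under 5 CPM in every library. Among lower genes, Acsl6, an acyl-CoA synthetase, had 0.292, 0.124 and 0.616 CPM in KI and 4.12, 2.54 and 2.68 CPM in wt (-3.17, adjusted p 0.00561) and Pla1a, a phospholipase, had 0.481, 1.04 and 0.756 CPM in KI and 8.08, 3.34 and 5.75 CPM in wt (-2.91, adjusted p 0.00304). Il23a, a subunit of interleukin-23, had 0.919, 0.481 and 2.28 CPM in KI and 3.66, 3.77 and 20.3 CPM in wt (-2.91, adjusted p 0.0239), where wt 5 was several times the other wt libraries. Maats1 had 0, 0 and 0.014 CPM in KI and 3.13, 1.16 and 0.617 CPM in wt (adjusted p 0.00104), so that its KI level was at the limit of counting. Tmprss6 (-3.54) and Fut4 (-2.75) were under 6 CPM throughout. Fam160a1, Acsl6, Pla1a and Maats1 still passed the threshold without any 1 of the 6 libraries. Wnt3 was not called without wt 1 (adjusted p 0.0802). Il1r2 was called without wt 5 but without no other single library (adjusted p up to 0.149). Gng4 was not called without KI 3, wt 1 or wt 5 (adjusted p up to 0.0971). Galnt14 was called without wt 3 but without no other single library (adjusted p up to 0.172). Olr1 was called in no fit that left out 1 library (adjusted p up to 0.151). Il23a was not called without KI 1, KI 3 or wt 5 (adjusted p up to 0.196). Tmprss6 was not called without KI 1, KI 5, wt 1 or wt 5 (adjusted p up to 0.124). Fut4 was not called without KI 1, KI 3, KI 5 or wt 1 (adjusted p up to 0.156).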

How the data were processed

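RNA was sequenced in 6 CD8+ T cell libraries of this comparison, within 22 used for the fit. Per the submitters' processing notes, tools named include TopHat2 2.1.0, Bowtie2 2.2.5, SAMtools 0.1.19, featureCounts and DESeq2 1.6.3 with build GRCm38 (mm10); strand setting and annotation version are not given in the sources used here. The authors deposited whole-number counts for 46603 genes, which were tested, and FPKM for listed genes, checked to be 1 factor per gene and library times the count and used only for levels per length. Positions are from the authors' tables or GENCODE on GRCm38.

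Genes were kept by filterByExpr (minimum count 10, total 15). Counts were scaled with TMM and 8 group means fitted to 22 libraries (14 residual degrees of freedom) by the robust quasi-likelihood test of edgeR 4.0.16 in R 4.3.3, with Benjamini-Hochberg adjustment and calls under 0.05. This script was tested on simulated data. Alternatives used DESeq2 1.42.0, limma 3.58.1, other scalings and filters, fewer libraries and the experiment as a block. The labels name the shared experiment, which pairs the libraries. The main fit had no term for mouse or experiment. It treated libraries of the same mouse at different times as independent, also in the tests of the 48 h difference against earlier ones. Deviations from group means of same-experiment libraries correlated across genes at r = 0.0212, 0.441 and 0.452, others at -0.449 to 0.197. Replicates were not duplicates (chi-square per degree of freedom of at least 36.7).

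The genes named were Tcaim, the 15 per direction of smallest p and the 8 per direction of largest change with a mean of at least 1 CPM in the higher group and the same sign in all experiments, called list members, and some uncalled ones, the best expressed first. The members and lists were chosen with earlier results of these data known. Some genes that the rule or the lists hold are counted but not reported here by name. Genes with exons over another gene have uncertain counts.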

Additional observations from a re-analysis of the deposited data

Results flagged for a closer look

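The genotype difference at 48 h differed from that in naive cells for 82 genes by edgeR's interaction term (0.387% of those tested), and from that at 24 h for 1. The count for naive cells was 21 without KI 1, 66 without KI 3, 45 without KI 5, 24 without wt 1, 170 without wt 3 and 70 without wt 5. Values below are the 48 h log2 fold change minus the naive one, each from the same 12 libraries within the fit, for the genes flagged by that test.

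Of the sterol enzymes, 3 of 8 in the mevalonate arm and 4 of 12 from squalene to cholesterol were called in this test. The share of all genes was 0.387%. These enzymes stood more below wt at 48 h than in naive cells, and the rest of both lists was not called. The change was -1.685 for Mvd, -1.66 for Fdps, -1.17 for Fdft1, -1.35 for Pmvk, -1.33 for Msmo1, -1.55 for Lss and -1.19 for Nsdhl. For the models that copy or overlap them it was -1.55 for Gm3571, -1.785 for Gm5873, -1.325 for Gm6781 and -1.29 for Gm43738. Against 24 h, Mvd changed by -1.41. Other genes that moved down relative to wt were Acsl3 by -1.31, Eno3 by -1.63, Zfp341 by -1.34, Slc39a10 by -1.5, Slc9a5 by -1.6, Slc52a3 by -1.64 and Hemk1 by -1.44.

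Genes that moved up relative to wt were Cacng4 by 3.74, P2rx7 by 2.44, Cxcr6 by 2.29, Ccr9 by 2.27, Vipr1 by 1.59, Galnt4 by 1.41, Tcaim by 1.325, Pglyrp2 by 1.235, Selenow by 1.21, Brpf3 by 1.125 and Rbmx by 1.11. Smaller were Smap2 at 0.98, Pon2 at 0.81, Nedd9 at 0.79, Il2rg at 0.699 and its overlapping model Gm20489 at 0.67.

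Of the 40 listed interferon-stimulated genes, 9 were called in the test against naive cells, and these 9 moved down relative to wt. The rest of the list was not called in it. The values were -2.9 for Mx2, -2.855 for Isg15, -2.22 for Oas3, -2.22 for Dhx58, -2.0 for Bst2, -1.835 for Usp18, -1.78 for Phf11a, -1.65 for Ifi27l2a and -1.19 for Stat2. Of these, Oas3, Dhx58, Usp18, Phf11a, Mx2 and Ifi27l2a had been called higher in naive KI cells.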

How the results depend on the processing

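No called gene that is named reversed its direction in any of the 22 alternatives that tested it, and Tcaim was called in all of them. Of 115 other called genes that are named, 26 kept the call in every alternative and 58 with each single library left out. In a fit of the compared libraries only, 46 of the 115 kept the call and 69 lost it. That fit called 4 genes of the mevalonate list, 5 of the squalene list and 1 of the sterol sensing list. It called 3 homing receptors, 2 quiescence genes, 1 interferon-stimulated gene and 0 p53 targets. The main count of 884 became 1714 with DESeq2, 109 in a fit of the compared libraries only (2885 at an unadjusted p under 0.05) and 1838 without the libraries labelled KO. Leaving out single libraries gave 253 to 1616, and leaving out experiment 1, 3 or 5 gave 44, 818 and 399, an alternative added after seeing the data. With the experiment as a replicate block there were 1005 calls in all libraries and 657 in the compared ones. Among these genes only Acsl5 lost its call under the first block. Between 874 and 917 genes were called under other scalings and limma-voom, 631 with no filter on low counts and 980 at a mean of 1 CPM. The share of higher calls was 54.6%, and 49.8% to 58.9% under other scalings. Differences between the 48 h and naive effects (82) numbered 360 with DESeq2, 139 with the compared libraries only, 258 without libraries labelled KO, 21 to 170 without single libraries, 3, 139 and 31 without experiments 1, 3 and 5, and 108 with the block. Between the 48 h and 24 h effects (1 gene) they numbered 49 with DESeq2, 2 with limma-voom, 3 with no filter, 0 with the compared libraries only (edgeR, 1269 at an unadjusted p under 0.05), 12 without libraries labelled KO, 2 with the block, 0 to 5 without single libraries, and 0, 4 and 1 without experiments 1, 3 and 5. The cause of these shifts was not tested. The block in the compared libraries was not run for the last tests. With 3 mice per genotype, genes that miss the threshold are not shown to be alike.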

Other observations

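The gene families here were chosen after their values were seen, so their counts carry no test of the family. Guanylate-binding proteins, interferon-gamma-induced GTPases that act against intracellular pathogens, were higher in KI for 7 of 11 tested genes, with none lower. The share of all genes called higher was 2.28%. The family's median log2 fold change was 1.18 at 48 h, 0.28 at 24 h and 0.33 naive. Gbp4 had 591, 401 and 400.4 CPM in KI and 158, 121 and 246 CPM in wt (1.41, adjusted p 0.00512 by edgeR). Gbp7 had 211, 205 and 205 CPM in KI and 71.2, 82.6 and 81.6 CPM in wt (1.4, adjusted p 0.00458). Gbp2 had 1395, 954 and 1630 CPM in KI and 529, 294 and 705 CPM in wt and was not called (1.38, adjusted p 0.0652). For all 11 genes every KI library lay above every wt library, against 10.8% of all tested genes. Their sequences are alike, so reads could have been shared among them. Of 12 genes of the Ifi200 family, sensors of DNA, 4 were called higher and none lower, against 2.28% of all genes called higher. Ifi206 and Ifi208 rose by 1.53 and 2.26 on the log2 scale, and Ifi209 and Ifi214 by 1.36 and 1.88. The family's median was 0.53 at 48 h, with 8 genes above zero and 4 below, 0.65 at 24 h and 0.43 naive. Gbp4, Gbp7 and Ifi209 kept their calls with each of the 6 libraries left out in turn. Ifi206 was not called without KI 1 or wt 1 (adjusted p up to 0.0888). Ifi208 was not called without wt 1 (adjusted p 0.0628). Ifi214 was not called without KI 1, KI 3, wt 1 or wt 3 (adjusted p up to 0.135).

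Beside the zinc importer Slc39a10, lower in KI, the zinc exporter gene Slc30a1 was higher, with 8.02, 6.26 and 5.91 CPM in KI and 2.17, 2.95 and 1.33 CPM in wt (1.65, adjusted p 0.00116), and the importer gene Slc39a3 slightly higher (0.54, adjusted p 0.0337). Of 8 exporters tested 1 was called (median 0.09), and of 13 importers 1 was called higher and 1 lower (median -0.22). The share of all genes called was 4.17%. Both metallothioneins tested were near 1 CPM in KI and lower in wt, and neither was called (Mt1 2.13, adjusted p 0.186, Mt2 2.83, adjusted p 0.0571). Of 5 genes that deliver copper to cytochrome c oxidase, Cox17 had 47, 42.4 and 57.2 CPM in KI and 106, 79.5 and 114 CPM in wt (-1.03, adjusted p 0.000691) and Sco1 had 17.6, 19.1 and 20.6 CPM in KI and 39.6, 27.9 and 29.4 CPM in wt (-0.76, adjusted p 0.00709), both lower in KI. These were the 2 called of the 5, whose median was -0.11, against 1.89% of all genes called lower. Of 14 nucleotide receptors, P2ry2 rose along with P2rx7, from 0.119, 0.113 and 0.121 CPM in wt to 0.525, 0.728 and 1.49 CPM in KI (2.94, adjusted p 0.00787). These were the 2 called of the 14, whose median was 0.63, against 2.28% of all genes called higher. Slc30a1, Cox17 and P2ry2 stayed called whichever of the 6 libraries was left out. Slc39a3 was not called without KI 1, KI 5, wt 1 or wt 5 (adjusted p up to 0.133). Sco1 was not called without KI 1 or wt 1 (adjusted p up to 0.0566).

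Around Tcaim on chromosome 9, 3 of 93 tested genes within 5 Mb were called (3.23%, against 4.17% of all genes), Ccr9, Cxcr6 and Vipr1, and 4 of 116 within 10 Mb (3.45%), with Tmppe. The median log2 fold change was 0.19 within 1 Mb and 0.05 within 5 Mb.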
